A study of Mus musculus with 6 samples.

Results

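The cytosolic ribosomal protein genes encode the proteins of the small and large subunits of the ribosome, including the acidic stalk that recruits the elongation factors. Their mRNAs are among the most abundant in a growing cell, and their output is set as a group. Many of them begin with an oligopyrimidine tract at the 5′ end, which places their translation under the control of mTORC1 and the binding protein LARP1, while Myc raises the transcription of both these genes and the ribosome assembly genes. Single members such as Rplp0, Rpl13a and Rps18 are widely used as reference genes in quantitative PCR, because their level is taken to be stable.

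All gene symbols of the form Rpl or Rps followed by a number, with or without a closing a, l or x, together with Rplp0, Rplp1, Rplp2 and Rpsa, were taken from the deposited table. The rule found 80 genes of the 36870 symbols listed: 31 of the small subunit, 46 of the large subunit and 3 of the stalk. Of these, 79 reached a mean of 0.1 RPKM (reads per kilobase of transcript, scaled to the number of mapped reads) and were tested among 13266 genes, and Rpl10l did not.

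The RNA-seq compared 2 groups of 3 libraries of total RNA from bone marrow mesenchymal stem cells (BMMSCs) of C57BL/6 mice at passage 2. BMMSCs are the adherent cells grown out of flushed femurs and tibias. The control group received non-targeting siRNA (called vehicle in the study's sequencing methods), and the siTet1/Tet2 group received siRNAs against Tet1 and Tet2, a pair of enzymes that oxidize 5-methylcytosine in DNA. The labels do not say whether the replicates were separate cultures or animals, or how long the siRNA was applied, so p-values measure only the spread among these libraries, which may be technical.

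Tet2 was listed at 2.57, 4.08 and 3.71 RPKM in the control replicates and at 0.358, 0.238 and 0.202 RPKM in the siTet1/Tet2 replicates, and Tet1 did not pass 0.1 RPKM in any library. The labelled cell type was checked against markers. Macrophage markers were abundant in both groups, with Csf1r between 478 and 619 RPKM, and of the stromal markers Col1a1 ran from 394 to 655 RPKM in the controls and Vim from 1763 to 1787 RPKM, while Thy1, Lepr and Lum were at or near 0. Of 12 stromal markers tested, 9 fell, against 29.8% of all genes tested, with a median log2 fold change of -2.40 over the list. The 15 listed summed to 2902 to 3382 RPKM in the controls and 1628 to 1823 RPKM with siTet1/Tet2. Of 13 macrophage markers, 7 rose and 4 fell, against 14.7% and 29.8% of all genes tested. The sum of these markers was 7134 to 9184 RPKM in the controls and 14703 to 17830 RPKM with siTet1/Tet2. Most of that difference was in Lyz2, the lysozyme of macrophages, and without it the sum was 3586 to 4171 RPKM in the controls and 4861 to 5144 RPKM with siTet1/Tet2. These sums moved with the groups, and their part in the results below was not tested. In bulk RNA, fewer cells of a type and less RNA per cell cannot be told apart.

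To show the element that many members share, the 60 bases around the start site, 40 before and 20 from the start on, are given for 5 members with a tract across the start and for Rpl39l, the member with the largest change, from RefSeq (GRCm38.p6). The capitals mark the pyrimidine tract, a C followed by at least 7 further C or T on the gene's own strand.
Rps6, chr4:86857348-86857407, minus strand: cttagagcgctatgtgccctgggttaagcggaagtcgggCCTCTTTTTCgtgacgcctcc
Rpl15, chr14:18270967-18271026, minus strand: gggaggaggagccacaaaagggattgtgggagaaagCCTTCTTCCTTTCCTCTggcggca
Rplp2, chr7:141447611-141447670, plus strand: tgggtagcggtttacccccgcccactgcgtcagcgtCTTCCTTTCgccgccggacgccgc
Rps18, chr17:33955646-33955705, minus strand: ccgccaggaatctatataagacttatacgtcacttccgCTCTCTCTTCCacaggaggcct
Rps10, chr17:27635225-27635284, minus strand: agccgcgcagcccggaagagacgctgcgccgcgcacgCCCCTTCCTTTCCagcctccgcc
Rpl39l, chr16:10170188-10170247, plus strand: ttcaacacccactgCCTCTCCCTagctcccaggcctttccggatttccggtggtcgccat

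In Rps6, Rpl15, Rplp2, Rps18 and Rps10 the tract runs across the annotated start, while in Rpl39l it lies upstream of it. RefSeq windows were at hand for 60 of the 80 members. A tract of at least 8 bases within 50 bases of the start was found in 51 of them (85%), against 32% of all genes with a window. These tracts need not cross the start. The one in Rpl12 begins at position 39 from the start and the one in Rpl27 at -42. The letters CCGGAAG, searched on both strands from 250 bases before to 50 after the start, occurred in 25 members (41.7%) and in 9.93% of all genes. The match is a description of the letters only. The members lie on 19 chromosomes, 4 of them (Rpl10, Rpl36a, Rpl39 and Rps4x) on the X.

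The 78 members other than Rpl10l and Rpl3l had means between 9.77 and 824 RPKM over the 6 libraries, with a median of 71.5 RPKM, an 84.4-fold range for proteins of a single particle. Rplp1, a stalk protein, was highest, at 1044, 960.2 and 643 RPKM in the control replicates and 809, 776 and 714 RPKM in the siTet1/Tet2 replicates. The lowest was Rps27, at 13.1, 11.5 and 6.76 RPKM in the controls and 10.9, 8.203 and 8.224 RPKM with siTet1/Tet2. In both genes control replicate 3 was the lowest of all 6 libraries and the groups overlapped.

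**Figure D1:**
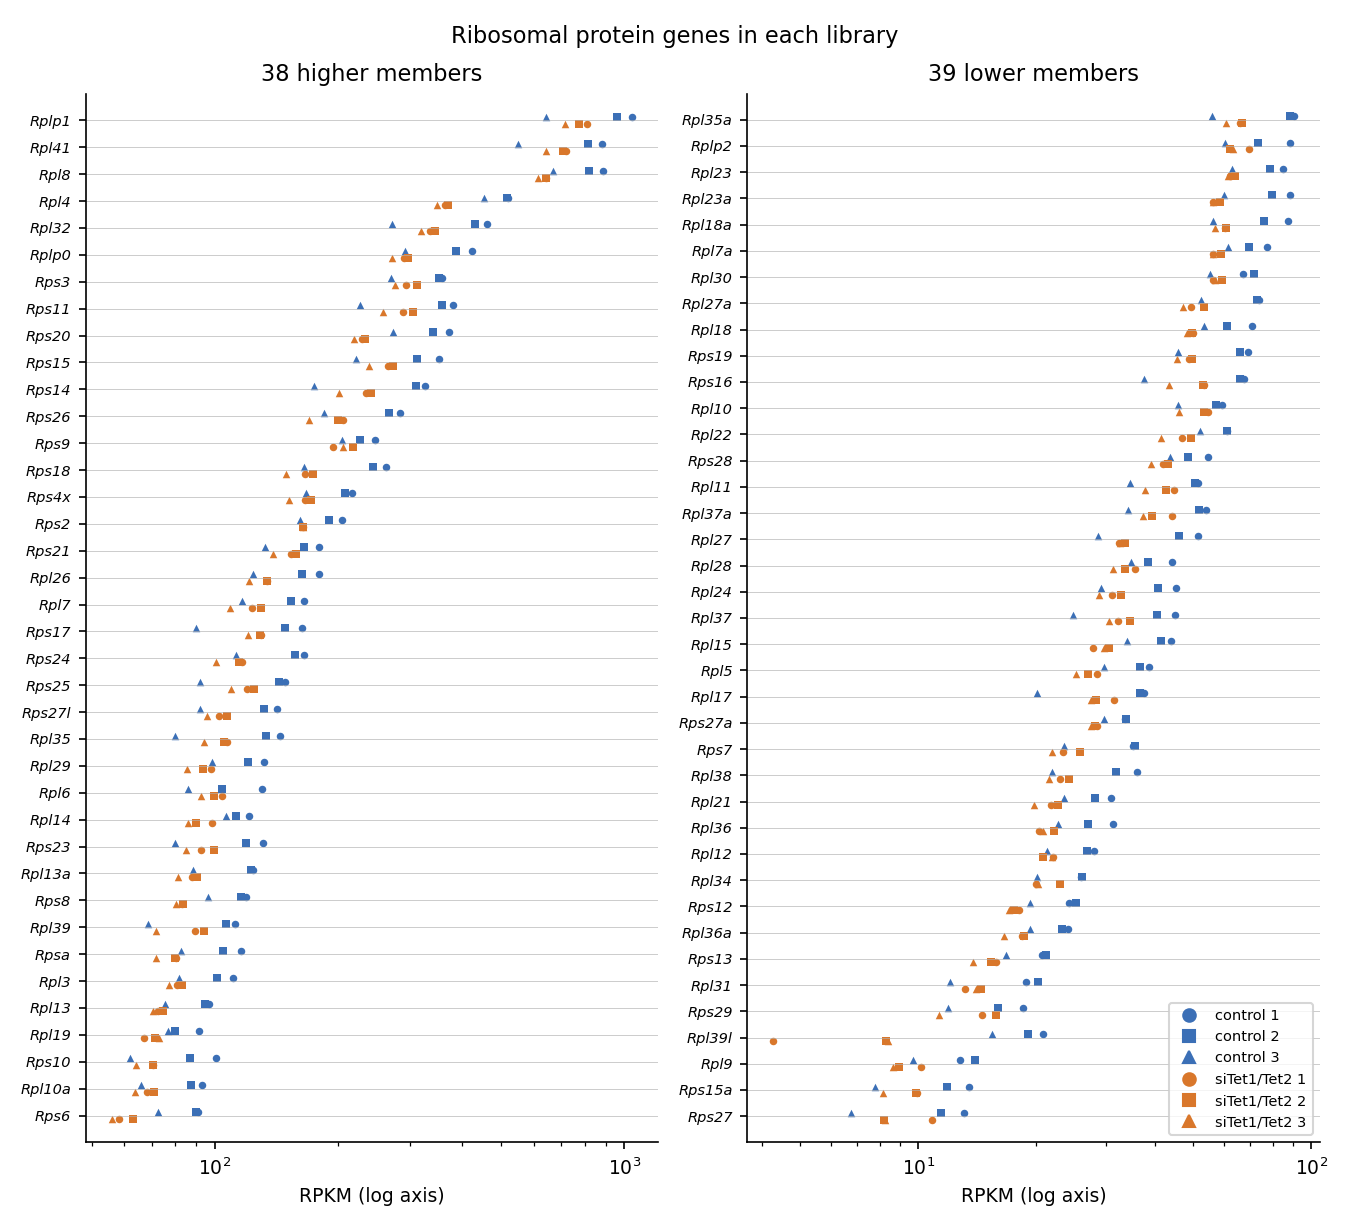
Level of 77 of the 78 members of at least 1 RPKM, sorted by mean, in RPKM on a log axis; each point is 1 library, blue for control and orange for siTet1/Tet2, and the marker shape gives the replicate number. Controls 1 and 2 lie to the right of all siTet1/Tet2 libraries in nearly all members, control 3 lies among or below the siTet1/Tet2 libraries in 53, and Rpl39l is the member with the widest gap.

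Ribosomal protein genes have large numbers of processed pseudogenes, intronless copies of an mRNA that can take or share reads. The levels were set beside the number of annotated pseudogenes of all classes, processed or not. The coding sequences of the members matched 958 annotated pseudogenes at 90% identity or more over at least 80% of their length. Each pseudogene was counted only for the member it matched best. The number of matches per member had a median of 8.5 and ran from 0 in 6 members to 76 in Rpl21. The 42 members with fewer than 10 matches had a median level of 101 RPKM and the 36 with 10 or more had 62.1 RPKM. The 10 highest members had 0 to 8 matches each. Across the 78 members Spearman's rho between the number of matches and the mean RPKM was -0.33, a description over genes that share the same libraries.

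Of the matched pseudogenes, 34 were listed under their own symbol and 15 of those exceeded 1 RPKM. The row Rpl37rt averaged 274 RPKM while Rpl37 averaged 34.6 RPKM, Rpl34-ps1 averaged 259 RPKM while Rpl34 averaged 22.5 RPKM, and Rpl31-ps12 averaged 60.5 RPKM while Rpl31 averaged 15.4 RPKM. Rps27rt, a near copy of Rps27, was listed at 285, 231 and 149 RPKM in the controls and 180.03, 192 and 157 RPKM with siTet1/Tet2, far above Rps27 itself. How reads that match several places were assigned is not given in the sources used here, so the levels of members with close copies are uncertain, and the order of members by level cannot be read as an order of mRNA abundance.

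**Figure D2:**
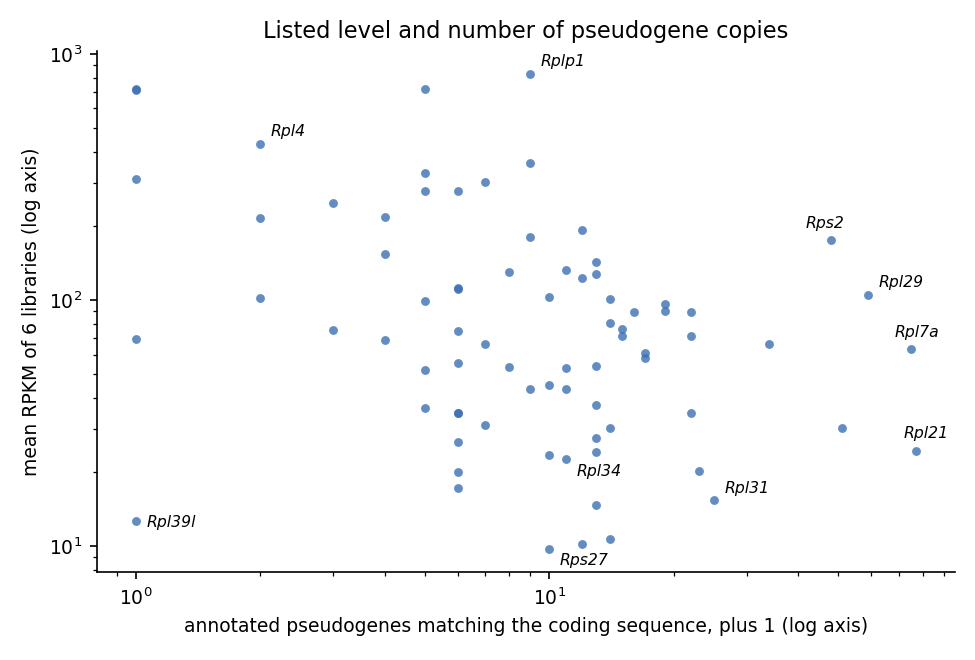
Mean RPKM of each of the 78 members over the 6 libraries (log axis) against the number of annotated pseudogenes matching its coding sequence, plus 1 (log axis); each point is 1 gene. Each pseudogene counts only for the member it matches best. Rplp1 is the highest, with few copies, Rpl21 and Rpl7a have the most copies, and Rpl39l is low with 0 copies.

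Within each library the members moved as a block. The median deviation of the members from their own mean over the 6 libraries was 0.34 and 0.24 on the log2 scale in control replicates 1 and 2, but -0.15 in control replicate 3, against -0.10, -0.09 and -0.21 in the siTet1/Tet2 replicates. Control replicate 3 therefore sat with the siTet1/Tet2 libraries. The same medians over all genes tested were 0.04, 0.05 and 0.05 in the controls and -0.06, -0.05 and -0.02 with siTet1/Tet2. Summed over the 80 members, the level was 12837, 11943 and 8872 RPKM in the controls, a mean of 11217 ± 2080 (SD, n = 3), and 9483, 9595 and 8746 RPKM with siTet1/Tet2, a mean of 9274 ± 461 (SD, n = 3). The members made up 2.97%, 2.83% and 2.26% of the summed RPKM in the controls and 2.15%, 2.18% and 2.06% with siTet1/Tet2. The 10 highest rows took 11.7%, 11.4% and 10.5% of that sum in the controls and 20.0%, 19.0% and 17.8% with siTet1/Tet2. The shares of the members therefore also depend on those rows.

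**Figure D3:**
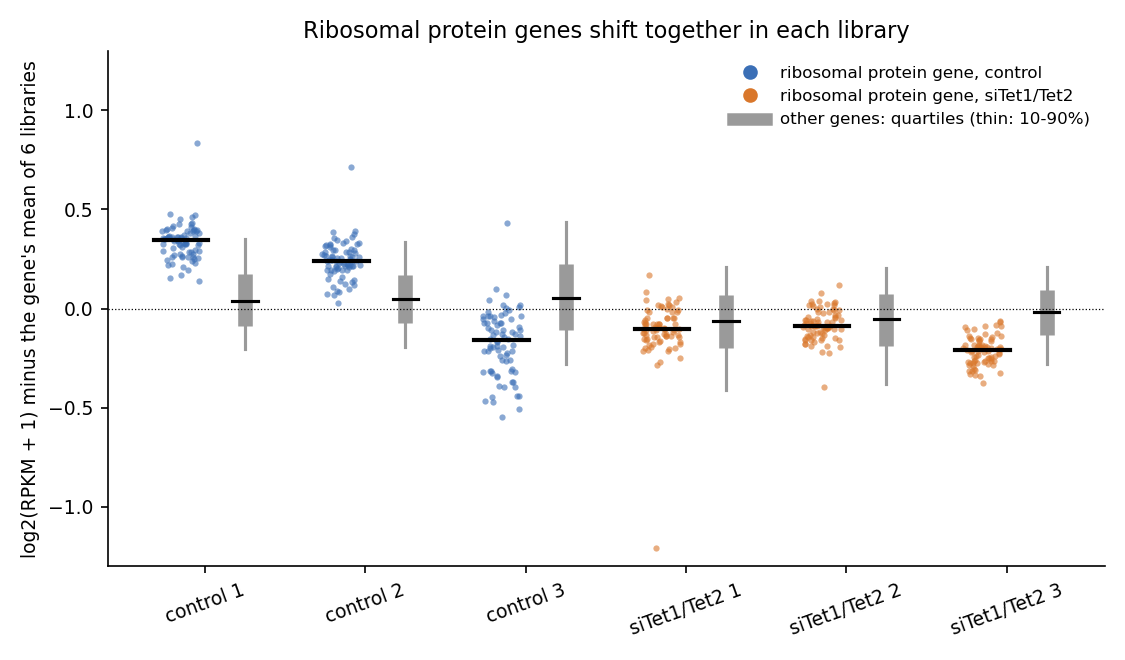
Deviation of log2(RPKM + 1) from the gene's mean over the 6 libraries, for the 78 members of at least 1 RPKM (points, with the median as a black bar) and for the other genes tested (grey bar, quartiles; thin line, 10% to 90%; black tick, median), by library. Controls 1 and 2 stand above 0 and control 3 stands at the level of the siTet1/Tet2 libraries, while the medians of the other genes stay near 0 in all 6 libraries.

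Control replicate 3 was the lowest of the controls in 78 of 78 members, a position it held in 37.6% of all genes tested. It was at or below the highest siTet1/Tet2 library in 53 of 78 members and below all 3 siTet1/Tet2 libraries in 31. Its log2 difference from the mean of control replicates 1 and 2 had a median of -0.44 over the members, from -0.86 to -0.13, and of 0.02 over all genes. In the siTet1/Tet2 group, replicate 3 was the lowest in 66 of 78 members, with a median difference of -0.13 from replicates 1 and 2 and of 0.04 over all genes. Control replicates 1 and 2 both exceeded all siTet1/Tet2 libraries in 77 of 78 members, against 42.8% of all genes, and the highest value of the 6 was in control replicate 1 for 69 members and in control replicate 2 for 9. For the counts given here without a share of all genes, that share was not taken, so they cannot be called particular to the members.

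The shift of control replicate 3 went with transcript length in all genes. Among other genes averaging 10 RPKM or more, its median log2 difference from control replicates 1 and 2 was -0.33 for 399 genes with transcripts under 1000 nucleotides, -0.18 for 1412 genes between 1000 and 2000, -0.02 for 2463 genes between 2000 and 4000, and 0.14 for 1595 genes of 4000 or more. The members are short, with a median transcript of 869 nucleotides, and 49 of them in the shortest class differed by -0.47 and 23 in the next class by -0.41. By these medians the members differed more than other genes of their length class. Replicate 3 of the siTet1/Tet2 group showed a trend in the same direction against siTet1/Tet2 replicates 1 and 2. Its medians over these other genes were -0.11, -0.05, 0.02 and 0.10 from the shortest to the longest class. Without control replicate 3, the median log2 fold change with siTet1/Tet2 in the shortest class was -0.41 in the members and -0.09 in the other genes. The part of transcript length in the shift of the members was not tested further.

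Between the groups, 24 of 79 members were lower with siTet1/Tet2 at an adjusted p under 0.05 (limma, Benjamini-Hochberg over all genes tested), or 30.4%, against 29.8% of all genes tested. None was higher, also at an unadjusted p under 0.05, against 14.7% and 17.7% of all genes. The share of members that were lower was thus close to that of any gene, while the direction was shared: the siTet1/Tet2 mean was the lower one in 78 of 79 members. The share of all genes with a lower siTet1/Tet2 mean was not taken. The median log2 fold change was -0.25 in the members and -0.09, also negative, in all genes. Lower calls numbered 8 of 31 in the small subunit (median log2 fold change -0.23), 16 of 45 in the large subunit (-0.27) and 0 of 3 in the stalk (-0.17). In 25 members the siTet1/Tet2 libraries all lay below the controls, against 35.9% of all genes, and in 0 members they all lay above, against 19.8%.

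The count depended on the libraries included. Without control replicate 3, 75 of 79 members were lower, against 31.2% of all genes, and the median log2 fold change was -0.41: 30 of 31 in the small subunit, 42 of 45 in the large subunit and 3 of 3 in the stalk. The members not called were Rpl10, Rpl6, Rps29 and Rpl3l. When another library was left out in its place, between 7 and 11 members were lower: 8 without control replicate 1, 7 without control replicate 2, and 11, 9 and 7 without siTet1/Tet2 replicates 1, 2 and 3. The shares of all genes that were lower in these fits were 27.9%, 23.9%, 22.8%, 22.7% and 28.7%, above those of the members. With the replicate number as a block, 44 of 79 members were lower, against 33.7% of all genes. With both libraries numbered 3 left out, 73 were lower, against 34.0% of all genes, and the median log2 fold change was -0.37.

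**Figure D4:**
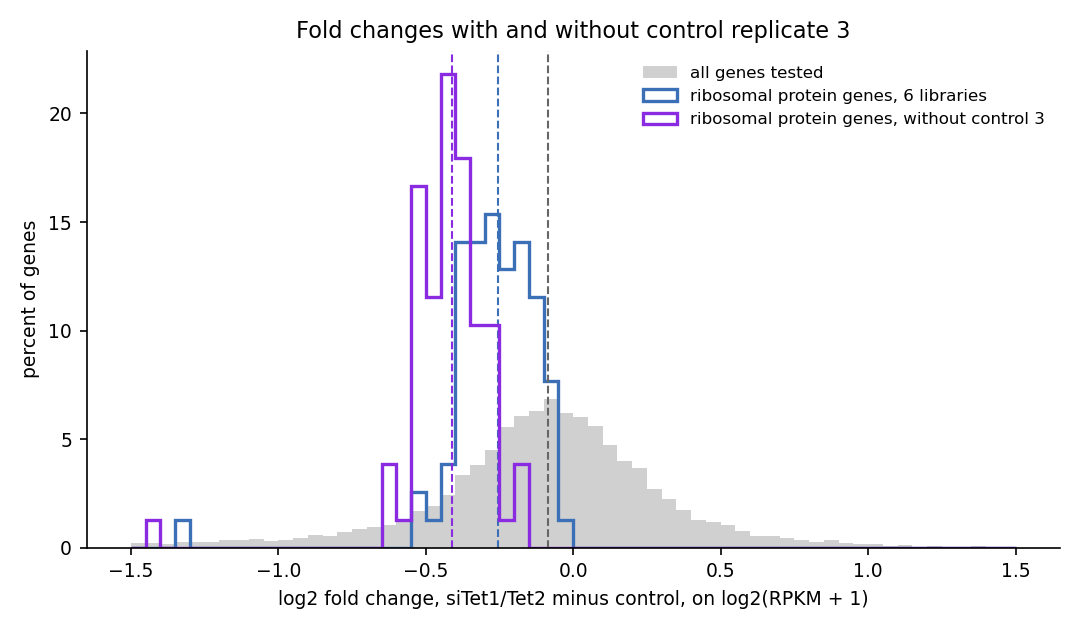
Distribution of log2 fold changes (siTet1/Tet2 minus control, on log2(RPKM + 1), bins of equal width) as percent of genes, for all genes tested (grey; values beyond the axis are not drawn) and for the 78 members of at least 1 RPKM with all 6 libraries (blue) and without control replicate 3 (purple); dashed lines are medians. All 78 members lie below 0 in both, with Rpl39l far to the left, and the median moves from -0.26 to -0.41 when control replicate 3 is left out.

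Rpl39l encodes a paralog of the large subunit protein Rpl39 that is best known from the testis. It was the only member to change more than 2-fold at an unadjusted p under 0.05, 1 of 79 members against 6.58% of all genes in either direction and 5.63% with a decrease. Rpl39l (chr16:10170226-10174911 in GRCm38, plus strand) was listed at 20.7, 19.0 and 15.4 RPKM in the controls and at 4.29, 8.27 and 8.39 RPKM with siTet1/Tet2. The groups did not overlap, and control replicate 3 stayed well above the siTet1/Tet2 libraries. The log2 fold change was -1.32 ± 0.22 (SE; adjusted p = 0.00163, limma), -1.43 without control replicate 3, and between -1.57 and -1.03 over the 22 settings examined, with an adjusted p of at most 0.00879. The estimated reads behind it numbered 403 to 620 in the controls and 132 to 257 with siTet1/Tet2. As the best match of a pseudogene, Rpl39l was found 0 times and Rpl39 18 times. Pseudogenes closer to Rpl39 that also match Rpl39l would be counted for Rpl39 only.

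The difference from the widely expressed paralog Rpl39 was not tested. Rpl39 stood at 112, 106 and 68.5 RPKM in the controls and at 89.5, 94.0 and 71.6 RPKM with siTet1/Tet2, with control replicate 3 lowest of all and overlapping groups (log2 fold change -0.14 ± 0.18, adjusted p = 0.55). Without control replicate 3 Rpl39 was lower, with a log2 fold change of -0.37 (adjusted p = 0.0249).

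Next in size among the members called came 4 with a higher level. Rps20 (chr4:3831334-3835665), a small subunit protein, was listed at 372, 340.5 and 273 RPKM in the controls and at 229, 233 and 218 RPKM with siTet1/Tet2 (log2 fold change -0.52 ± 0.11, adjusted p = 0.00575). Rps6 (chr4:86854660-86857412), the substrate of S6 kinase used as a readout of mTORC1, was listed at 90.6, 89.8 and 72.4 RPKM in the controls and at 58.1, 63.0 and 55.9 RPKM with siTet1/Tet2 (-0.50 ± 0.10, adjusted p = 0.00337). In both, control replicate 3 lay between the other controls and the siTet1/Tet2 libraries, and the groups did not overlap.

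Rpl4 (chr9:64173375-64178666), a large subunit protein that lines the exit tunnel, was listed at 519, 517 and 453 RPKM in the controls and at 365, 371 and 349 RPKM with siTet1/Tet2 (log2 fold change -0.45 ± 0.08, adjusted p = 0.00218). Rpl15 (chr14:18267823-18271391) was listed at 44.1, 41.4 and 34.0 RPKM in the controls and at 27.9, 30.6 and 29.7 RPKM with siTet1/Tet2 (-0.42 ± 0.10, adjusted p = 0.00863). The controls were again all above the siTet1/Tet2 libraries in both genes, with control replicate 3 nearest to them.

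The 5S particle proteins Rpl5 and Rpl11, which bind Mdm2 when they are not in a ribosome, differed in their calls. Rpl5 was listed at 38.6, 36.7 and 29.8 RPKM in the controls and at 28.5, 27.1 and 25.2 RPKM with siTet1/Tet2 (log2 fold change -0.36 ± 0.10, adjusted p = 0.0194), with no overlap. Rpl11 was listed at 51.4, 50.7 and 34.5 RPKM in the controls and at 44.7, 42.7 and 37.8 RPKM with siTet1/Tet2 (-0.10 ± 0.15, adjusted p = 0.597), and control replicate 3 was the lowest library. Without control replicate 3 both were lower, with log2 fold changes of -0.47 (adjusted p = 0.000923) and -0.29 (adjusted p = 0.0151). The difference between them was not tested.

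Rpsa, Rps27a and Rpl36a also passed the test. Rpsa, the small subunit protein also described as a laminin receptor, was listed at 116, 105 and 82.4 RPKM in the controls and at 80.2, 79.7 and 71.8 RPKM with siTet1/Tet2 (-0.37 ± 0.12, adjusted p = 0.0342). Rps27a, made as a fusion with ubiquitin, was listed at 33.6, 33.8 and 29.7 RPKM in the controls and at 28.4, 28.3 and 27.5 RPKM with siTet1/Tet2 (-0.20 ± 0.07, adjusted p = 0.0442). The X-linked Rpl36a was listed at 24.0, 23.2 and 19.3 RPKM in the controls and at 18.4, 18.6 and 16.5 RPKM with siTet1/Tet2 (-0.30 ± 0.09, adjusted p = 0.0334). In all of them control replicate 3 was the lowest control and lay narrowly above the siTet1/Tet2 libraries.

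The other X-linked members were not called with all libraries. Rps4x stood at 216, 207 and 167 RPKM in the controls and at 166, 172 and 152 RPKM with siTet1/Tet2 (adjusted p = 0.07). Rpl10 stood at 59.2, 57.1 and 45.9 RPKM in the controls and at 54.5, 53.3 and 46.1 RPKM with siTet1/Tet2 (log2 fold change -0.07 ± 0.11, adjusted p = 0.628). Control replicate 3 overlapped the siTet1/Tet2 libraries in both, and Rpl10 was also not called without it (-0.18, adjusted p = 0.0892).

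Among the paralogs, Rps27l, a copy of Rps27 known as a p53 target, stood at 141, 132 and 91.9 RPKM in the controls and at 103, 107 and 95.7 RPKM with siTet1/Tet2 (log2 fold change -0.24, adjusted p = 0.225). Rps27 itself had a log2 fold change of -0.14 ± 0.21 (adjusted p = 0.611). Control replicate 3 was the lowest library in both, so the groups overlapped. Rpl3l, a muscle paralog of Rpl3, was listed at 0.071, 0.054 and 0.001 RPKM in the controls and at 0.347, 0.092 and 0.05 RPKM with siTet1/Tet2. That rested on an estimated 0 to 18.3 reads per library (log2 fold change 0.15 ± 0.10, adjusted p = 0.237), and most of it came from siTet1/Tet2 replicate 1. Rpl10l, a testis paralog of Rpl10, was at the lowest listed value of 0.001 RPKM in 4 of 6 libraries and reached 0.06 RPKM at most. Rpl3 was listed at 110.5, 101 and 81.8 RPKM in the controls and at 80.9, 82.9 and 77.1 RPKM with siTet1/Tet2 (-0.27 ± 0.10, adjusted p = 0.0649), with control replicate 3 between the siTet1/Tet2 values.

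The members used as reference genes in quantitative PCR were not flat in these libraries. Rplp0 was listed at 425, 387 and 291 RPKM in the controls and at 289, 296 and 271 RPKM with siTet1/Tet2, so control replicates 1 and 2 stood above and control replicate 3 lay within the siTet1/Tet2 range (log2 fold change -0.35 ± 0.13, adjusted p = 0.0611). Rps18 was listed at 262, 243 and 165 RPKM in the controls and at 166, 173 and 149 RPKM with siTet1/Tet2 (-0.43 ± 0.16, adjusted p = 0.0604). Rpl13a was listed at 124, 123 and 88.5 RPKM in the controls and at 87.7, 90.4 and 81.3 RPKM with siTet1/Tet2 (-0.35 ± 0.13, adjusted p = 0.0511). The same arrangement, with control replicate 3 inside the siTet1/Tet2 range, held for these genes, and without that library all were lower (adjusted p = 0.000521 for Rplp0, 0.00037 for Rps18 and 0.000312 for Rpl13a). With all 6 libraries and the replicate block they were also lower (adjusted p = 0.0128, 0.00668 and 0.00777), as were Rps4x (0.0111), Rpl3 (0.018), Rpl7 (0.0197) and Rpl23 (0.0297).

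Rpl32 was listed at 463, 432 and 270.3 RPKM in the controls and at 336, 344 and 319 RPKM with siTet1/Tet2 (-0.18 ± 0.18, adjusted p = 0.438). Its control replicate 3 was the lowest library by a wide margin. Rpl19 was listed at 91.5, 79.9 and 76.6 RPKM in the controls and at 67.2, 71.3 and 72.9 RPKM with siTet1/Tet2 (-0.22 ± 0.08, adjusted p = 0.0444), the groups being apart. Rps29 was listed at 18.4, 15.9 and 11.9 RPKM in the controls and at 14.5, 15.7 and 11.3 RPKM with siTet1/Tet2, overlapping groups with the libraries numbered 3 lowest in each (-0.14 ± 0.16, adjusted p = 0.523).

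The other stalk protein, Rplp2, had a log2 fold change of -0.17 ± 0.13 (adjusted p = 0.295), from 74.0 ± 14.0 RPKM in the controls to 64.9 ± 3.99 RPKM with siTet1/Tet2 (SD, n = 3). The members nearest to the median of the group were Rpl7, Rps10 and Rpl23, with log2 fold changes of -0.25, -0.25 and -0.26 and adjusted p of 0.142, 0.216 and 0.0741. Those with the smallest SD over the 6 libraries were Rps9 (0.12 on the log2 scale), Rps27a (0.126), Rps2 (0.142), Rpl30 (0.149) and Rpl10 (0.153). Rps9, the steadiest, was listed at 245, 226 and 204 RPKM in the controls and at 195, 217 and 205 RPKM with siTet1/Tet2, with overlapping groups.

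As a reference set the members were noisier than the genes they would be used to scale. The median SD of log2(RPKM + 1) over the controls was 0.267 for the 78 members and 0.104 for all 6240 genes of at least 10 RPKM, while over the siTet1/Tet2 libraries it was 0.0875 and 0.0734. In control replicates 1 and 2 alone it was 0.0765 and 0.0528. Only 9 of 78 members had a 6-library SD below the median of the genes of at least 10 RPKM. Once each library was centred on the members, their median SD over the controls dropped to 0.0906, and the SD over the 6 libraries was smaller in 77 of 78 members, while that of all genes of at least 10 RPKM rose to 0.257 over the controls. As the centring used the mean of these same members, a smaller spread among them is built in.

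The factors by which the members would scale the libraries were 1.27, 1.19 and 0.883 in the controls and 0.926, 0.943 and 0.860 with siTet1/Tet2. For comparison, those of Gapdh were 1.06, 0.992 and 0.966 in the controls and 1.13, 0.991 and 0.885 with siTet1/Tet2. Scaled by the members, 1 member was lower (Rpl39l), and the calls over all genes changed from 3952 lower and 1953 higher to 1393 lower (10.5%) and 2169 higher (16.4%). This scaling moved the median over all genes up by 0.21 on the log2 scale. Without control replicate 3 as well, 4 members were lower than the rest (Rpl39l -1.03, Rps20 -0.22, Rps18 -0.20, Rps6 -0.18), and 6 were higher (Rpl10 0.24, Rps9 0.23, Rps21 0.23, Rps2 0.17, Rps3 0.15, Rpl41 0.14). The backgrounds were 11.1% of all genes lower and 44.8% higher. As the scaling sets the median of the members near 0, the counts of members cannot be read against these.

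The common reference genes outside the family were examined in the same way. Ywhaz, a 14-3-3 protein, ran from 80.9 to 82.9 RPKM over all 6 libraries, and Tbp, the TATA-binding protein, from 8.25 to 9.09 RPKM. Gapdh had a log2 fold change of -0.01 (adjusted p = 0.922) and Actb of -0.22 (adjusted p = 0.161). Of 18 such genes 3 rose and 5 fell, near the shares of all genes (14.7% and 29.8%), with a median log2 fold change of -0.03. B2m, the light chain of MHC class I, fell from between 2721 and 3148 RPKM in the controls to between 822 and 882 RPKM, and Gusb, a lysosomal enzyme, rose by 0.78 on the log2 scale.

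Among ribosomal proteins whose symbols the rule does not take, 8 were tested, and 2 fell with all libraries, against 29.8% of all genes. Gnb2l1, the small subunit scaffold RACK1, had a log2 fold change of -0.40 (adjusted p = 0.0287) and Rps3a1 of -0.40 (adjusted p = 0.00739). Without control replicate 3, 7 of the 8 were lower, against 31.2% of all genes. Rpl22l1 was the exception, with a log2 fold change of -0.12 (adjusted p = 0.256). With the members as the reference 0 of the 8 were lower, against 10.5% of all genes, and their median was 0.06.

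The genes that build the ribosome were examined beside its proteins. Of 30 ribosome assembly genes, 26 were lower with siTet1/Tet2 and 0 higher (median log2 fold change -0.43). This did not rest on control replicate 3, whose median difference from the other controls was 0.03 for this list, and without it 29 were lower with a median of -0.44. Nop58, a core protein of box C/D snoRNPs, was listed at 46.2, 47.7 and 50.02 RPKM in the controls and at 20.5, 19.2 and 26.3 RPKM with siTet1/Tet2 (-1.10 ± 0.11, adjusted p = 0.000112). Control replicate 3 was here the highest of the controls.

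Dkc1, the pseudouridine synthase of box H/ACA snoRNPs, fell by 0.91 on the log2 scale, Nop56 by 0.87 and Npm1, the nucleolar chaperone nucleophosmin, by 0.85. For RNA polymerase I, which makes the large rRNAs, 8 of 14 genes were lower and 0 higher, with a median of -0.25. Its largest subunit Polr1a had a log2 fold change of -0.55 ± 0.07 (adjusted p = 0.000413), whereas its activator Ubtf had one of 0.02 (adjusted p = 0.833).

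Of 39 translation factors, 25 were lower and 0 higher (median log2 fold change -0.32). The largest were Eif3e, a subunit of the initiation factor eIF3 (-0.72 ± 0.07, adjusted p = 7.55e-05), and Eef1g, a subunit of the elongation factor eEF1B (-0.69 ± 0.08, adjusted p = 0.000225). Among those not called with all libraries were Eef1a1 (-0.20, adjusted p = 0.185), Eef2 (-0.14, adjusted p = 0.192) and Tpt1 (-0.09, adjusted p = 0.601). Eef1b2 (-0.48, adjusted p = 0.0175) and Pabpc1 (-0.49, adjusted p = 0.000876) were called lower. Without control replicate 3, Eef1a1 (adjusted p = 0.0196) and Tpt1 (adjusted p = 0.00787) were also lower, and Eef2 was not called (adjusted p = 0.052).

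Among the 17 tested regulators of mTORC1 and of pyrimidine tract mRNAs, 6 were lower and 0 higher. Myc was listed at 26.4, 25.7 and 26.7 RPKM in the controls and at 10.3, 14.0 and 15.5 RPKM with siTet1/Tet2 (log2 fold change -0.95 ± 0.13, adjusted p = 0.000588), with the controls close together and the groups apart. Larp1, the binding protein of the tract, fell by 0.50, the S6 kinase Rps6kb1 by 0.44 and the translation repressor Eif4ebp1 by 0.55 on the log2 scale. The kinase Mtor had a log2 fold change of -0.17 (adjusted p = 0.18). The shares called lower in the 4 lists stand beside the background of 29.8% given above. With the members as the reference, 6 of 30 assembly genes (Npm1, Nop56, Nop58, Dkc1, Rrp9 and Tsr1), 0 of 14 polymerase I genes, 2 of 39 translation factors (Eef1g and Eif3e) and 1 of 17 regulators (Myc) were lower, against 10.5% of all genes, and the list medians were -0.18, 0.01, -0.04 and 0.10. The medians of the polymerase I and regulator lists thus moved from below to above 0 with this scaling, which sets the family's own shift to 0. Of either list 0 genes were called higher. With median ratio scaling 23, 5, 16 and 5 genes of the lists were lower, against 22.3%, and 2 regulators were higher. The lists were compiled with earlier results of these data known, and no cause of the changes was tested.

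**Figure D5:**
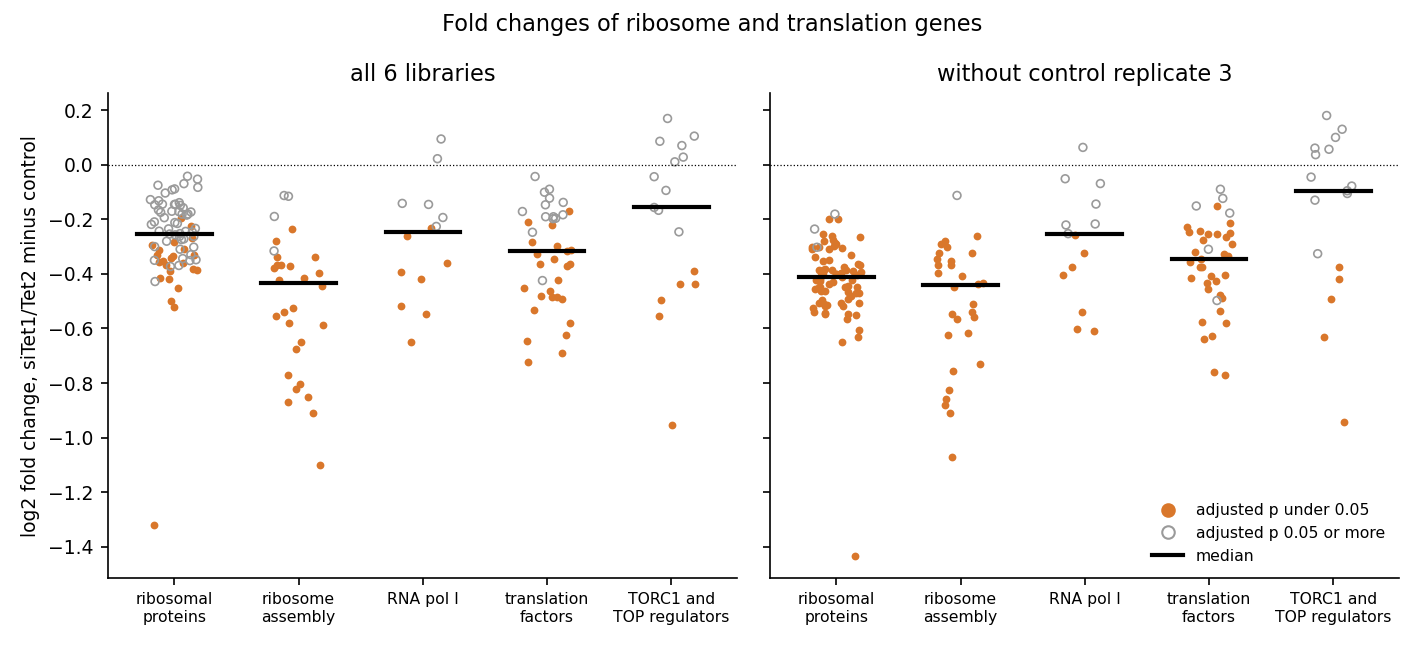
Log2 fold change of each gene (siTet1/Tet2 minus control, on log2(RPKM + 1)) in the 78 members of at least 1 RPKM and in 4 lists of ribosome and translation genes, with all 6 libraries (left) and without control replicate 3 (right); orange points have an adjusted p under 0.05, open points do not, and black bars are medians. The members move from a median of -0.26 to -0.41 and most turn orange, while the assembly genes keep a median of -0.43 and -0.44.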

How the data were processed

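The authors mapped paired reads of the 6 libraries to GRCm38 with DNASTAR Lasergene v15.0 and deposited abundances as RPKM (FPKM in their methods). Annotation release, strand and handling of multiply mapping reads are not given in the sources used here, and the deposited p-value column was not used. Depth was estimated from the steps of low values at 32400000 to 38600000 reads per library. Since only 50.7% to 58.3% of those values lay within 0.1 of a whole read, no count test was run.

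Of 37 repeated symbols the highest row was used. Values were tested as log2(RPKM + 1), where 1 is the pseudocount, two-sided and unpaired, with limma 3.58.1 in R 4.3.3 (lmFit, eBayes with trend), for the 13266 genes averaging 0.1 RPKM or more, with Benjamini-Hochberg adjustment. This scale understates fold changes of low genes. The smallest p of an exact permutation test of 1 gene in this design is 0.1. On simulated libraries 186 of 200 genes changed by 2-fold were recovered and 11 of 13066 unchanged genes were called. The simulated noise was independent between genes, and low genes were not among those changed. No shift shared by the genes of a library was simulated, so the error rate under such a shift is not known from it. The p-values given are from this unpaired fit, as in the design, except where the replicate block, another scaling or a left-out library is named. Values with the block are given because, in libraries of the same number, deviations from the group means correlated at 0.149, 0.117 and 0.462 over all genes, although the labels do not say what a number shares and control replicate 1 correlated best with siTet1/Tet2 replicate 2 (0.332).

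Members named singly were the 5 largest decreases among those called (none was called higher), the 5 with the smallest SD, the 3 nearest the median, and members with set roles (stalk, reference genes, paralogs, X-linked, Rpl5, Rpl11, Rps6, Rps27a, Rpsa). The result for 1 member is not reported here. The members and all lists were chosen with earlier results of these data known, and list genes were named after their values were seen. Transcript lengths (93.6% of the genes tested), positions and pseudogenes came from GENCODE M21, and pseudogenes were matched with blastn 2.17.0. Python 3.11.15 (numpy 2.4.6, pandas 2.3.3, matplotlib 3.10.9) was used for counts and figures. Alternatives changed the pseudocount, filter, scaling, variance model, pairing, repeated symbols and the libraries included.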

Additional observations from a re-analysis of the deposited data

How the results depend on the processing

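The number of members called lower, 24 with all libraries, changed by more than 1.5 times with most choices. It was 11 without a filter on low values (20.2% of all genes were lower), 48 after rescaling to the same sum (4376 of 13266 genes), 6 after median ratio scaling (22.3%), 12 with Gapdh as the reference (20.1%) and 44 with the replicate block (33.7%), which changed no other count of members by that much. Leaving out 1 library gave 7 to 75, the highest without control replicate 3, and leaving out both libraries numbered 3, an alternative chosen after seeing the data, gave 73. Over all genes, 3952 were lower and 1953 higher, which became 2627 and 3606 with quantile normalization, 2960 and 2855 with median ratio scaling and 3155 and 2385 after rescaling without the 10 highest rows. With Gapdh as the reference 1287 were higher. Quantile normalization moved the median over all genes up by 0.14 on the log2 scale. The cause of these changes was not tested.

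With the members as the reference, their median log2 fold change was 0.016 by construction, 1 was lower, and 1393 genes were lower; without control replicate 3 as well, chosen after seeing the data, the median was 0.0095, 6 members were higher and 4 lower, and 5939 genes were higher and 1478 lower. Log2 fold changes that turned positive with the members as the reference, followed by the value without control replicate 3 where it was also positive, were those of Rps9 (0.15, 0.23), Rps27a (0.069, 0.17), Rps2 (0.11, 0.17), Rpl30 (0.11, 0.16), Rpl10 (0.20, 0.24), Rpl7 (0.019, 0.029), Rps10 (0.019), Rpl23 (0.014, 0.047), Rplp1 (0.10, 0.046), Rplp2 (0.099, 0.12), Rpl32 (0.090, 0.0064), Rpl19 (0.047, 0.15), Rps29 (0.12, 0.10), Rps27l (0.038, 0.0060), Rpl3 (0.00021, 0.036), Rpl39 (0.13, 0.063), Rps4x (0.011, 0.055), Rps27 (0.11), Rpl11 (0.17, 0.14), Gapdh (0.26, 0.38) and Actb (0.052, 0.18), with Rpl36a (0.025) in the second alone. Signs also turned with median ratio scaling for Rpl10 (0.047), Rpl11 (0.013) and Gapdh (0.10), with quantile normalization for Rpl10 (0.017), Rps29 (0.0047), Rps27 (0.013), Rpl11 (0.00018) and Gapdh (0.086), and when 1 library was left out for Rps27 (-0.40 to 0.028), Rpl10 (-0.18 to 0.0043) and Gapdh (-0.099 to 0.071). Gapdh turned with rescaling without the 10 highest rows (0.054) and with both libraries numbered 3 left out (0.043). Rpl39l, Rps20, Rps6, Rpl4, Rpl15, Rpl5, Rpsa, Rplp0, Rpl13a and Rps18 kept their direction under all 22 settings, and of these Rpl39l alone also kept an adjusted p under 0.05 throughout (others reached 0.0645 to 0.649).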

Other observations

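The p53 target genes, chosen because free Rpl5 and Rpl11 bind Mdm2, moved both ways. Of 14 tested, 7 were lower and 1 was higher with siTet1/Tet2, with a median log2 fold change of -0.34, against 29.8% and 14.7% of all genes. Cdkn1a, the cell cycle inhibitor p21, was listed at 201, 188 and 181 RPKM in the controls and at 103, 113 and 113 RPKM with siTet1/Tet2 (-0.79 ± 0.07, adjusted p = 6.04e-05), and Sesn1, a stress-induced inhibitor of mTORC1, rose by 0.99 (adjusted p = 1.05e-05). Mdm2 itself had a log2 fold change of -0.13 (adjusted p = 0.225). Both called genes kept the groups apart with control replicate 3 close to the other controls.

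The 7 snoRNA host genes listed, among them Gas5 and Snhg1, which carry pyrimidine tracts like the ribosomal protein genes, stood at the lowest listed value of 0.001 RPKM in all 6 libraries. They are given only as listed, and whether these genes were counted was not tested.

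Among the pseudogene rows of the members, Rpl34-ps1 was listed at 318, 318 and 219 RPKM in the controls and at 234, 243 and 225 RPKM with siTet1/Tet2, and Gm10362, a copy of Rpl17, at 40.6, 39.2 and 19.4 RPKM in the controls and at 29.8, 31.1 and 26.3 RPKM with siTet1/Tet2. In both, control replicate 3 was the lowest library. These rows were chosen after their values were seen, and low rows such as Gm32886, a copy of Rpl39 at 0.236, 0.267 and 0.273 RPKM in the controls and 0.46, 0.382 and 0.417 RPKM with siTet1/Tet2, differed from them.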
